A study of Mus musculus with 4 samples.

Results

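The 10 genes described here encode secreted proteins that inhibit Wnt signalling: Wif1, Sfrp1, Sfrp2, Sfrp4, Sfrp5, Frzb, Dkk1, Dkk2, Dkk3 and Sostdc1. They were chosen by name, with earlier results of these data known. Every non-control probe carrying any of these names in the 4 scanner files was taken. That gave 11 probes of 55681 on the array design, 1 for each of 9 genes and 2 for Sostdc1. All 10 genes passed the filter on dim probes, among 18736 genes tested. Each array compared RNA of a sample labelled primary odontoblast, in Cy5, with RNA of a sample labelled calvarial osteoblast, in Cy3. Odontoblasts line the dental pulp and deposit dentin, and osteoblasts deposit bone. Both samples came from mice aged 2 weeks that carried EGFP, a green fluorescent protein, driven by a 2.3 kb fragment of the type I collagen promoter. Green cells were sorted after enzymatic digestion of dental pulp and of calvarial bone from matched donors. The labels give the strain C57BL/6 for the pulp channel. The same promoter fragment marked the sorted cells of both tissues. How purely the sort took a single cell type from each tissue was not tested. How many animals each array represents is unknown here, and p-values therefore cover array-to-array spread, which may be technical in part.

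Wnt ligands bind Frizzled receptors together with the co-receptors Lrp5 and Lrp6 and stabilise beta-catenin. Secreted antagonists act outside the cell in different ways. Wif1 and the secreted frizzled-related proteins (Sfrp1, Sfrp2, Sfrp4, Sfrp5 and Frzb) bind Wnt ligands, the frizzled-related proteins through a domain like that of Frizzled. The Dickkopf proteins Dkk1 and Dkk2 bind Lrp5 and Lrp6, as does Sostdc1, also called ectodin or Wise, which binds BMP ligands as well. Dkk3 is a divergent Dickkopf protein with a less settled role in the pathway. Wnt signals direct bone formation, and in mice loss of Sostdc1 leads to extra teeth.

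Several marker genes of the cell types named by the dye labels lay opposite to those labels, and others lay near 0. Dspp, the precursor of the main non-collagenous dentin proteins, had a mean log2 ratio of Cy5 over Cy3 of -1.95 (adjusted p = 0.0603, limma). The odontoblast marker Nes stood at -2.0 (adjusted p = 0.0691) and Dmp1, a matrix protein of dentin and osteocytes, at -1.71 (adjusted p = 0.111). On the bone side, Ifitm5 of mineralising osteoblasts was higher in the channel labelled odontoblast, at 5.05 (adjusted p = 0.0167), as was the type I collagen gene Col1a2 at 2.79 (adjusted p = 0.0230). Col1a1 (1.80, adjusted p = 0.0522), Ibsp (2.65, adjusted p = 0.157) and Bglap (1.34, adjusted p = 0.392) had positive ratios and were not called. The other listed markers were named after their values were seen. On the odontoblast list, Wnt10a stood at -5.91 (adjusted p = 0.00580, limma) and Phex at 0.38 (adjusted p = 0.613). On the osteoblast list, Pth1r stood at 4.74 (adjusted p = 0.0168) and Runx2 at 1.20 (adjusted p = 0.158), while Sp7 (0.015) and Alpl (0.054) were near 0. Channels are therefore named below by dye and label, and no direction is assigned to a cell type. No array had its dyes swapped, so dye and label share 1 ratio. All 4 arrays lay on 1 slide, and their ratios correlated with r of 0.30 to 0.49 over the features tested. Between 67.8% and 85.2% of probes lay well above background per array and channel.

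The probes read here are 60 bases long. The 4 on which the results turn are shown by their first 30 bases, 5′ to 3′ as the files give them, all in lower case because no part is singled out. The Wif1 probe belongs to the only antagonist that was called, the Frzb probe to the one with the largest mean ratio, and the Sostdc1 probes gave opposite mean ratios.
Wif1: ggctgatatctactcttccttttaggtttt
Frzb: gtgcaccagggtgttatttaacagaggtat
Sostdc1 upstream: tctcaagatgtaatgagtagtttgcagtga
Sostdc1 downstream: tttttccagtctcagtgtgaaattatcccc
On mm9, the build of the files, the Wif1 probe lies on the plus strand at chr10:120537079-120537138 and the Frzb probe on the minus strand at chr2:80252582-80252641. The Sostdc1 probes lie on the plus strand at chr12:37044197-37044256 (upstream) and chr12:37044532-37044591 (downstream), 335 bases apart from start to start. An exon annotation on mm9 was not used here. GC content was 38.3% for the Wif1 probe, 35.0% for the Frzb probe and 45.0% for both Sostdc1 probes.

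Of the 10 antagonists, Wif1 alone passed the test, and it was higher in Cy3 (labelled osteoblast). Counts were 0 higher in Cy5 and 1 higher in Cy3 at an adjusted p under 0.05 from limma. Over all genes the test called 2.2%, with 1.31% higher in Cy5 and 0.886% higher in Cy3. At an unadjusted p under 0.05, 4 antagonists lay toward Cy5 and 1 toward Cy3, against 11.4% and 10.1% of all genes (21.4% together). The 4 became 3, 2, 3 and 1 without array 1, 2, 3 and 4, and 3 with the other Sostdc1 probe. Mean ratios were positive for 8 antagonists and negative for 2, with a median of 0.88 on the log2 scale against 0.01 over all genes. With the downstream Sostdc1 probe, dimmer by 0.03, they were positive for 7 and negative for 3, with a median of 0.54. With median centring in place of loess the median of all genes was itself 0.21. The median size of the mean ratio, whatever its sign, was 1.17 for the antagonists (1.60 with the downstream Sostdc1 probe) and 0.35 for all genes. These are bulk samples, in which fewer cells of a type and less RNA per cell cannot be told apart.

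**Figure D1:**
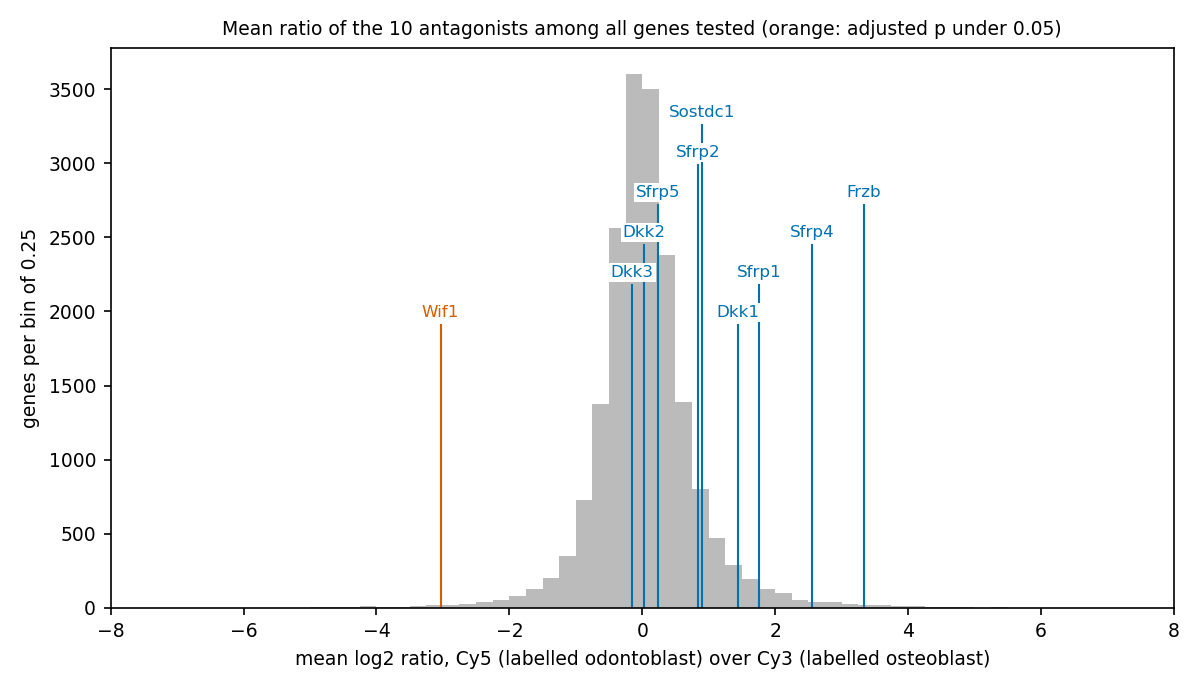
Grey bars give the number of all 18736 tested genes by mean log2 ratio of Cy5 (labelled odontoblast) over Cy3 (labelled osteoblast), in bins of 0.25, and lines mark the 10 antagonists, each by its brightest probe. Wif1, in orange, lies at -3.03 and passed the test, while Frzb lies at 3.34 and did not.

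Wif1, which binds Wnt ligands directly, had the same direction on every array. Its normalized intensity on arrays 1 to 4 was 4642, 2932, 3554 and 1475 in Cy5, against 19242, 18355, 34159 and 26601 in Cy3. Every Cy5 value lay below every Cy3 value, and the Cy5 values spread over 3.15-fold, against 1.86-fold in Cy3. Log2 ratios on arrays 1 to 4 were -2.05, -2.65, -3.26 and -4.17. The mean log2 ratio was -3.03 ± 0.37 (SE, n = 4, adjusted p = 0.0325, limma), so the signal was 8.19-fold higher in Cy3. Of 16 alternative settings, 7 leave the Wif1 ratio itself as it is. Under the 9 that change it, it lay between -3.36 and -2.62, and 2 of these kept an adjusted p under 0.05. The call was lost, at adjusted p-values of 0.0507, 0.0506 and 0.0514, with the scanner software's ratio, with the deposited value table and with scale normalization between arrays, and without any single array, at 0.0821 to 0.127.

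**Figure D2:**
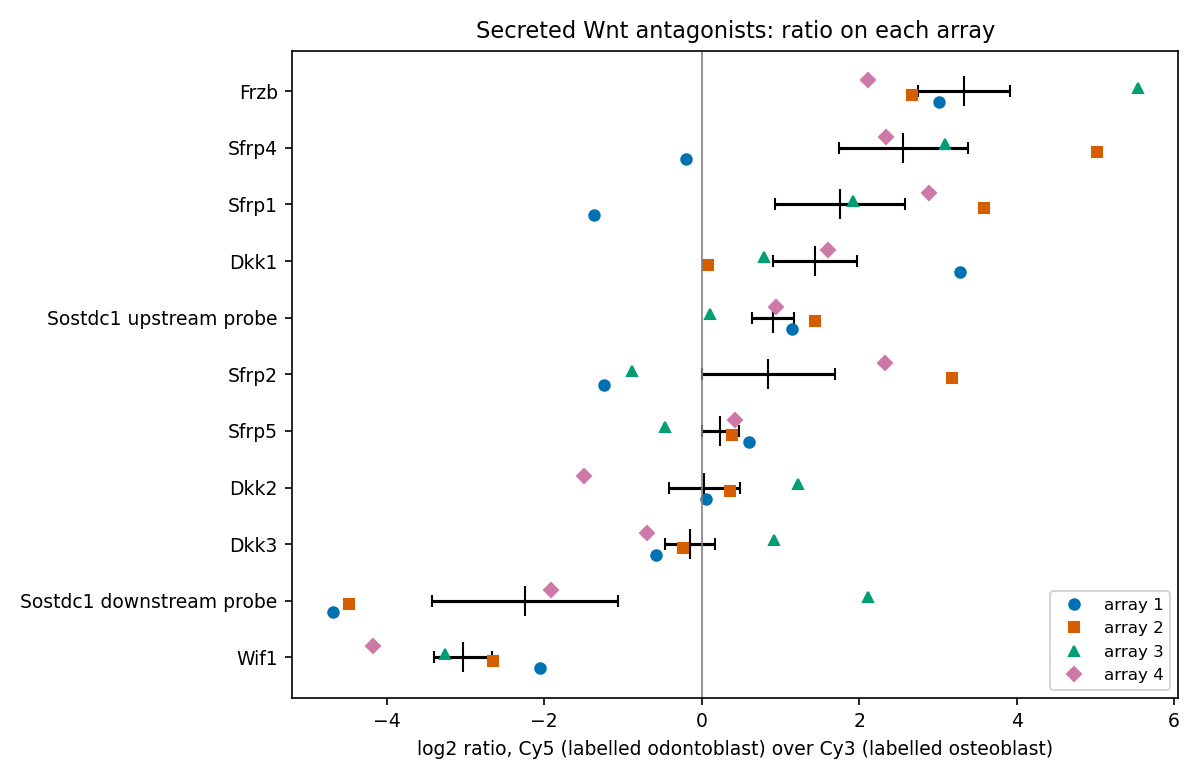
Log2 ratio of Cy5 (labelled odontoblast) over Cy3 (labelled osteoblast) for each of the 11 probes, with 1 symbol per array and the mean and its SE as a black bar (n = 4 arrays). All 4 Wif1 values lie below -2 and all 4 Frzb values above 2, while the Sfrp1, Sfrp2, Sfrp4 and downstream Sostdc1 values span 0.

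Frzb, also known as Sfrp3 and originally found in cartilage, lay toward Cy5 on every array. Normalized intensities were 14347, 8282, 9136 and 4891 in Cy5 on arrays 1 to 4, against 1779, 1302, 196 and 1128 in Cy3. The channels did not overlap, and the Cy3 value of array 3 stood apart from the other three. Ratios on the log2 scale were 3.01, 2.67, 5.55 and 2.12. The mean of 3.34 ± 0.59 (SE, n = 4), a 10.1-fold difference, missed the threshold (adjusted p = 0.0705, limma; 95% interval 1.87 to 4.80). Without array 3 the mean was smaller, 2.60, and passed (adjusted p = 0.0442), whereas without array 1, 2 or 4 the adjusted p was 0.213, 0.184 and 0.168. With the software's ratio it was 0.123. It also passed with median centring, at 3.59 (adjusted p = 0.0324), and with scale normalization, at 3.20 (adjusted p = 0.0262). Channels did not overlap for these 2 antagonists of 10, against 14.5% of all genes (7.97% higher in Cy5 and 6.49% higher in Cy3). Cartilage markers lay toward Cy5 as well, with 3 of 8 called higher in Cy5 and 0 in Cy3 (1.31% and 0.886% of all genes). None was below background throughout a channel, but Col2a1, called at 4.34, was well above background in Cy3 on only 1 array. Median ratios of the list were 1.77, 3.12, 1.51 and 0.79 on arrays 1 to 4. The summed intensity of the cartilage list was 48293 to 213326 in Cy5, against 4001 to 8204 in Cy3. Its brightest marker, Comp, had a mean log2 ratio of 6.92, while Matn3 (0.25) and Sox9 (0.45) were nearer to 0. All 8 mean ratios were positive, and the part of these markers in the Frzb ratio was not tested.

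Sfrp1, Sfrp2 and Sfrp4, secreted frizzled-related proteins like Frzb, differed most between arrays among the antagonists by their brightest probes; the downstream Sostdc1 probe, with an SD of 3.16 on the log2 scale, differed more. Sfrp1 had Cy5 intensities of 202, 4950, 3531 and 15376 on arrays 1 to 4, against 523, 411, 935 and 2086 in Cy3. Array 1 alone lay toward Cy3, and the Cy5 values spread over 76.0-fold, against 5.08-fold in Cy3. The log2 ratios of Sfrp1 were -1.37, 3.59, 1.92 and 2.88, with a mean of 1.76 ± 0.83 (SE, n = 4, adjusted p = 0.325, limma). Likewise, 31 of 44219 probes, 0.0701%, were at least 2-fold toward Cy3 on array 1 and at least 2-fold toward Cy5 on the other three. The same turn on array 2, 3 or 4 was shown by 17, 14 and 4 probes. The pattern was taken from the Sfrp1 values, so its small share is a description. Without array 1 the Sfrp1 mean was 2.80 and remained uncalled, within a range of adjusted p-values of 0.120 to 0.595 over all alternatives.

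Sfrp4, which is expressed in bone and for which loss of function thins cortical bone in mice, had Cy5 intensities of 4319, 18221, 20216 and 9100. In Cy3 they were 4959, 562, 2382 and 1794. The channels nearly met on array 1 and were far apart on array 2, with log2 ratios of -0.20, 5.02, 3.09 and 2.34. The mean of 2.56 ± 0.82 (SE, n = 4) was the second largest toward Cy5 among the antagonists and was not called (adjusted p = 0.195, limma; 95% interval 0.51 to 4.61).

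Sfrp2 split the arrays evenly. In Cy5 its intensities were 9264, 22293, 21238 and 52644 on arrays 1 to 4, against 21923, 2466, 39219 and 10464 in Cy3. Arrays 1 and 3 lay toward Cy3 and arrays 2 and 4 toward Cy5, with log2 ratios of -1.24, 3.18, -0.88 and 2.33. Its mean of 0.84 ± 0.84 (SE, n = 4, adjusted p = 0.620, limma) was not called. Without array 2 the mean was 0.07, and without array 1 it was 1.54. Markers of tendon, periosteum and fibroblasts, of which 5 of 9 were called higher in Cy5 and 0 in Cy3 (1.31% and 0.886% of all genes), had median ratios of 2.76, 4.05, 1.87 and 2.72 on arrays 1 to 4, and none of the 9 was below background throughout a channel. By mean ratio 8 of these markers lay toward Cy5 and 1 toward Cy3, Postn at -1.62 (adjusted p = 0.0956, limma). Their summed intensity was 181376 to 269011 in Cy5, against 51802 to 205638 in Cy3, and their part in the Sfrp values was not tested.

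Standard deviations over the 4 arrays were 2.19 for Sfrp1, 2.24 for Sfrp2 and 2.16 for Sfrp4 on the log2 scale. Over all genes the median was 0.55, and 1.23%, 1.06% and 1.32% of genes had a larger value than these 3 genes. Sfrp5, the last of the family, was steadier at 0.47. Its intensities were 1914 to 2672 in Cy5, against 1428 to 2787 in Cy3, with log2 ratios of 0.60, 0.38, -0.46 and 0.42. The mean of 0.24 was not called, and its 95% interval of -0.35 to 0.83 bounds the difference to below 2-fold either way (adjusted p = 0.620, limma).

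**Figure D3:**
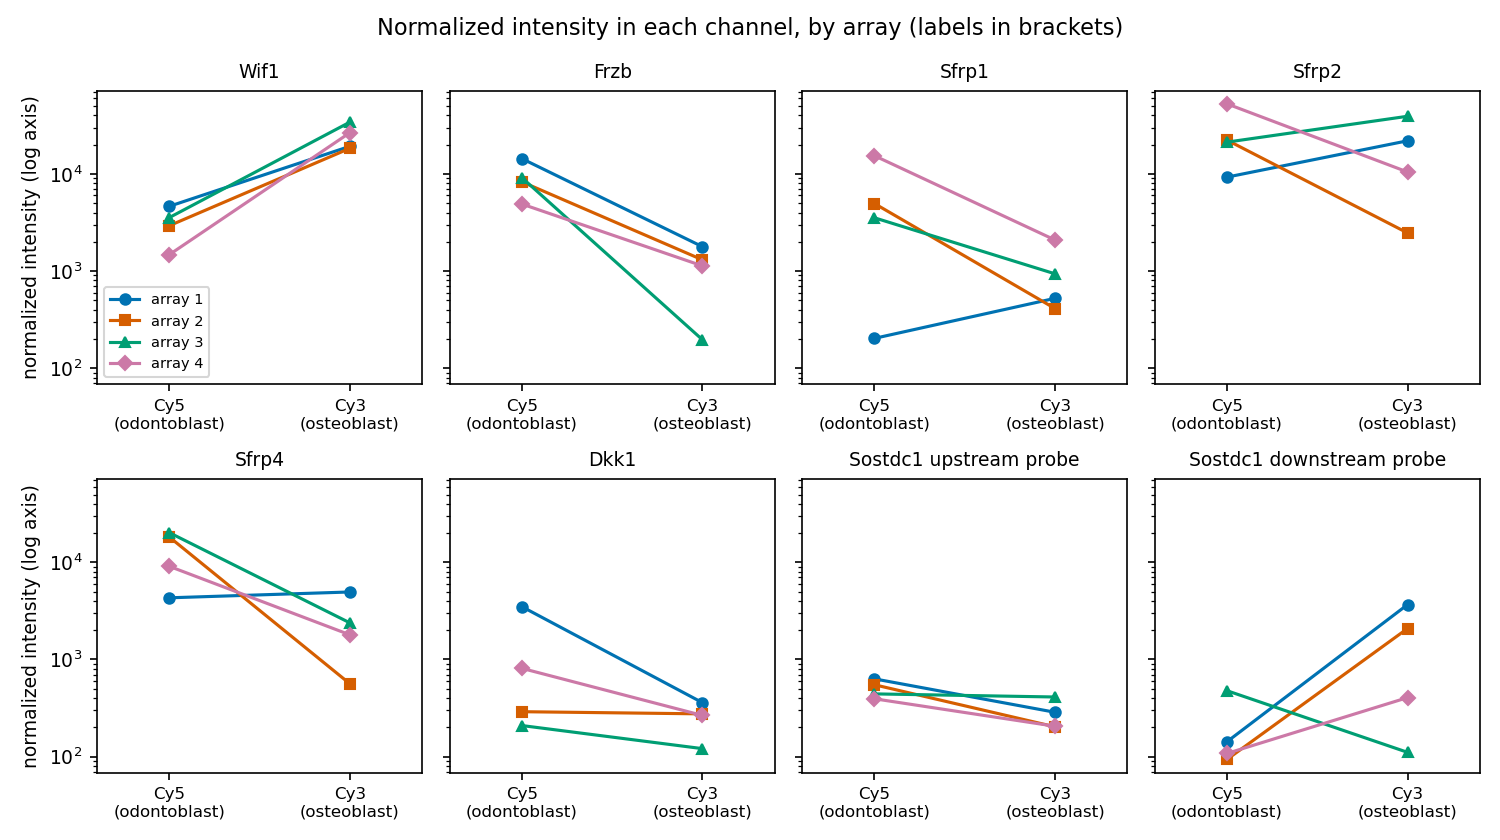
Normalized intensity on a log axis in Cy5 (labelled odontoblast, left) and Cy3 (labelled osteoblast, right) for 8 probes of 7 antagonists, with 1 line per array. The lines of Wif1 all climb toward Cy3 and those of Frzb all descend, while array 1 slopes against the other three for Sfrp1 and array 3 for the downstream Sostdc1 probe.

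Among the Dickkopf genes none was called. Dkk1, an inhibitor of Lrp5 and Lrp6 that limits bone formation, had Cy5 intensities of 3497, 290, 209 and 810, against 359, 275, 121 and 265 in Cy3. The Cy5 value of array 1 stood above the rest, on the array where Sfrp1, Sfrp2 and Sfrp4 had their lowest ratios. Dkk1 log2 ratios were 3.28, 0.07, 0.79 and 1.61, with a mean of 1.44 ± 0.54 (SE, n = 4, adjusted p = 0.240, limma). On array 3 Dkk1 was not well above background in Cy3, and the scanner software gave a log2 ratio of 2.37 there. Without array 1 the Dkk1 mean was 0.83.

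Dkk2, which binds the same co-receptors, had intensities of 550, 2555, 1982 and 1164 in Cy5, against 531, 1997, 850 and 3293 in Cy3. Array 3 lay toward Cy5 and array 4 toward Cy3, with log2 ratios of 0.05, 0.36, 1.22 and -1.5 on arrays 1 to 4. The mean log2 ratio was 0.032 ± 0.45 (SE, n = 4, adjusted p = 0.976, limma), with a 95% interval of -1.10 to 1.16, so a difference of about 2-fold in either direction lies within it. Dkk3 had intensities of 4196, 5120, 6051 and 4542 in Cy5, against 6292, 6039, 3204 and 7354 in Cy3. Its ratio was negative on 3 arrays and positive on array 3, with a mean of -0.15 ± 0.32 (SE, n = 4, adjusted p = 0.828, limma; 95% interval -0.94 to 0.64). The sign of the Dkk3 mean turned with median centring, to 0.16, and without array 4, to 0.032.

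The probes of Sostdc1, an inhibitor of Wnt and BMP signals in tooth development, did not give 1 value for the gene. The upstream probe had intensities of 632, 549, 442 and 394 in Cy5, against 286, 203, 411 and 205 in Cy3. Cy5 was higher on all 4 arrays, though hardly on array 3, with log2 ratios of 1.14, 1.44, 0.11 and 0.94. The mean was 0.91 ± 0.26 (SE, n = 4, adjusted p = 0.171, limma).

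The downstream probe had intensities of 142, 93.5, 477 and 108 in Cy5, against 3672, 2085, 111 and 405 in Cy3. Arrays 1, 2 and 4 lay toward Cy3 and array 3 toward Cy5, and the Cy3 signal of array 3 was not well above background. The downstream log2 ratios were -4.69, -4.48, 2.11 and -1.91, with a mean of -2.24 ± 1.18 (SE, n = 4, adjusted p = 0.367, limma with every probe as a feature). Without array 3 that mean was -3.69 (adjusted p = 0.0957). It was -1.43 without array 1 (adjusted p = 0.653), -1.5 without array 2 (0.618) and -2.35 without array 4 (0.548). The scanner software's ratio for the downstream probe on array 3 was 4.88, against 2.11 after normexp.

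The mean ratios of the Sostdc1 probes differed by 3.15 on the log2 scale. Among 5453 genes with several probes that passed the filter, the median spread was 0.43, and 18 genes, 0.33%, had a spread at least as large. By array, the downstream minus the upstream ratio was -5.83, -5.92, 2.00 and -2.85. As for the turn on array 3, 46 of 44219 probes, 0.104%, were at least 2-fold toward Cy5 on array 3 and at least 2-fold toward Cy3 on the other three. The same turn on array 1, 2 or 4 was shown by fewer probes, 11, 17 and 6. The pattern was taken from this probe's own values, so its small share is a description. The upstream probe represented the gene because its mean log2 intensity was higher, but the downstream probe was dimmer by only 0.03, so the choice decides the sign.

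Markers of dental epithelium, the enamel-forming layer that the sort was not aimed at, are given beside Sostdc1. Of 11 markers 8 were measured, 0 were called higher in Cy5 and 2 higher in Cy3 (1.31% and 0.886% of all genes), and none was below background throughout a channel. Their median ratio was -1.95, -1.47, -0.34 and -1.34 on arrays 1 to 4, closest to 0 on array 3. The enamel protein gene Enam had ratios of -3.00, -2.10, 0.14 and -1.33, while Odam, at -5.16, -5.59, -5.02 and -4.24, and Ambn, at -2.58, -2.89, -4.16 and -2.56, kept their direction on array 3. Perp, like Enam, was positive on array 3 alone, with log2 ratios of -2.50, -1.54, 0.40 and -2.97 on arrays 1 to 4 and a mean of -1.65. Of the rest, Klk4 had a mean log2 ratio of -0.95, while Krt14 (-0.10), Krt5 (-0.14) and Amelx (0.26) had means near 0. Krt5 had ratios of 1.19, 0.36, -0.74 and -1.35 on arrays 1 to 4. Summed intensities of the list were 2038 to 2578 in Cy5, against 6384 to 12333 in Cy3. Whether epithelial RNA takes part in the Sostdc1 values was not tested.

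By array, the number of antagonists with a positive ratio was 5 on array 1, 8 on array 2 and 7 each on arrays 3 and 4. Their median ratio was -0.07 on array 1, 0.91 on array 2, 0.85 on array 3 and 1.28 on array 4, each by the brightest probe. Of the 10 antagonists, 4 had 1 sign on all 4 arrays, namely Frzb, Dkk1 and Sostdc1 (upstream probe) toward Cy5 and Wif1 toward Cy3. Over all genes 31.5% had 1 sign on all arrays, 16.1% toward Cy5 and 15.4% toward Cy3, a share near that of the antagonists.

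**Figure D4:**
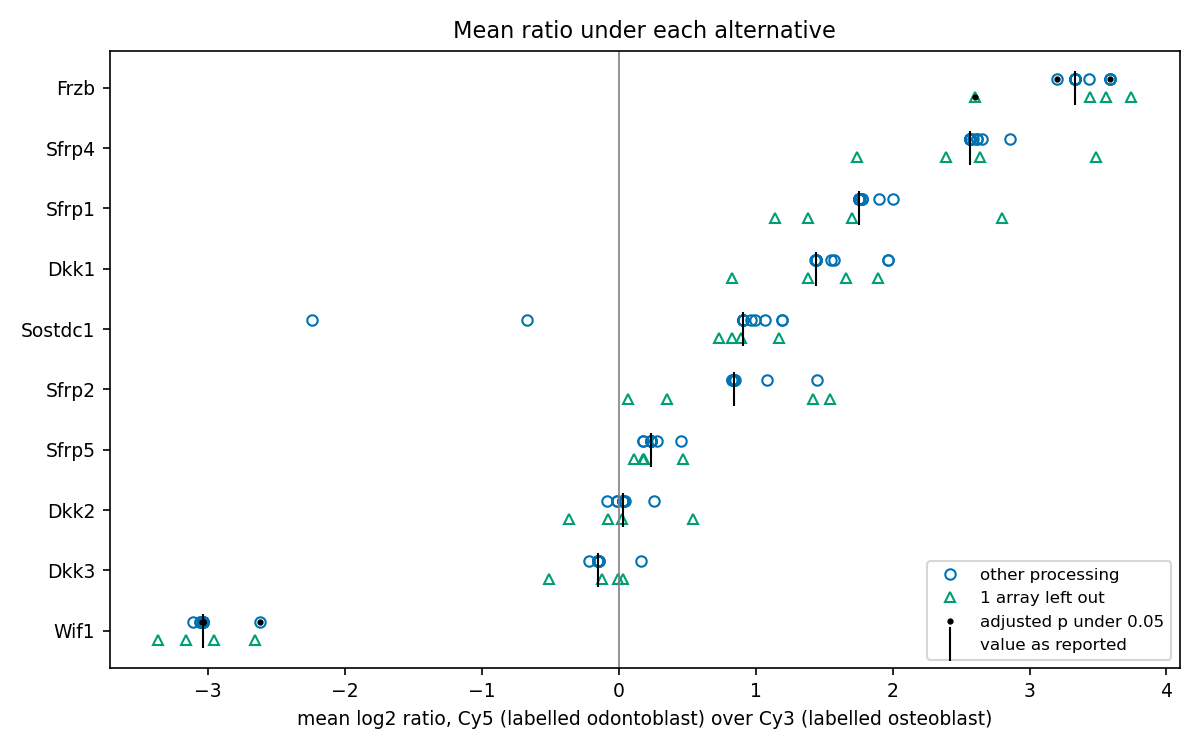
Mean log2 ratio of Cy5 (labelled odontoblast) over Cy3 (labelled osteoblast) for each antagonist as reported (black bar), under other processing (circles) and with 1 array left out (triangles), with a black dot where the adjusted p was under 0.05. Wif1 stays between -3.36 and -2.62, whereas Sostdc1 lies at 0.91 as reported, at -2.24 by its other probe and at -0.67 as the mean of both.

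Of 52 other Wnt pathway genes measured, 3 were called, or 5.77%, against 2.2% of all genes; all 3 were ligands. At an unadjusted p under 0.05 the share of all genes was 21.4%, against which the counts below are to be read. Of 17 Wnt ligands measured, 1 was called higher in Cy5, Wnt16 (3.94, adjusted p = 0.0121, limma), a ligand that protects cortical bone. Higher in Cy3 were 2, Wnt10a (-5.91, adjusted p = 0.00580), a ligand that teeth require, and Wnt5a (-1.09, adjusted p = 0.0489), a ligand of beta-catenin-independent signalling. The median over the ligands was -0.14. None of 17 Frizzled receptors and co-receptors was called by limma, against 5 toward Cy5 and 3 toward Cy3 at an unadjusted p under 0.05, and their median was 0.38. The brightest were Lrp4, a receptor of sclerostin (0.82, adjusted p = 0.136), and the receptor Fzd1 (-0.96, adjusted p = 0.228).

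Listed targets of beta-catenin signalling, 11 in all and only in part feedback genes, had 0 calls in either direction. At an unadjusted p under 0.05, 2 lay toward Cy5 and 5 toward Cy3, and the median over the 11 was -0.44. Lgr5, 1 of the 2 toward Cy5 (1.57), was well above background in Cy3 on 0 arrays. Its ratio is therefore a lower bound only, and it was named after its value was seen. The brightest of the targets were Ccnd1, which encodes cyclin D1 (-1.09, adjusted p = 0.114), and Myc (-0.08, adjusted p = 0.880). Axin2, the most used readout of the pathway, stood at 0.11 and was named after its value was seen; its ratio was -0.87 on array 1, -0.30 on array 2, 1.35 on array 3 and 0.25 on array 4. Of 9 further genes listed as Wnt inhibitors, among them the membrane-bound Apcdd1, 7 were measured and 0 were called. At an unadjusted p under 0.05 there was 1 in each direction. Whether each listed gene acts on Wnt signals was not tested. Sost and Cer1 did not pass the filter on dim probes. The brightest were Igfbp4, an IGF-binding protein that also inhibits Wnt signals (1.09, adjusted p = 0.349), and Tfpi (0.89, adjusted p = 0.193).

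The genes whose 4 ratios lay closest to those of Wif1 were sought among 16752 named genes measured on all arrays. Crabp1, which binds retinoic acid, was closest, with a root mean square distance of 0.46 on the log2 scale and ratios of -2.55, -3.02, -3.14 and -3.51. The transcription factor gene Sox11 followed at 0.52, with -1.70, -3.47, -3.66 and -3.80, and Lurap1l at 0.61. All 3 were called higher in Cy3, with adjusted p-values of 0.00977, 0.0335 and 0.0376 (limma). Closest to Frzb were Hs6st2, a heparan sulfate sulfotransferase gene (distance 0.41), Samd9l (0.44) and Fcgr2b, an Fc receptor gene of leukocytes (0.49). Of the 3 only Samd9l was called (3.23, adjusted p = 0.0359). The search fixes the shared pattern over arrays, so it is a description. Leukocyte markers as a list had median ratios of 0.97, 0.75, 2.21 and 0.50 on arrays 1 to 4. Of the 10, 2 were called higher in Cy5 and 0 in Cy3 (1.31% and 0.886% of all genes), and none was below background throughout a channel. By mean ratio 7 lay toward Cy5 and 3 toward Cy3, namely Csf1r (-0.39), Cd68 (-0.10) and Cd14 (-0.05). The summed intensity of the leukocyte list was 113279 to 197194 in Cy5, against 79104 to 109205 in Cy3. Its brightest marker, Itgam, had a mean log2 ratio of 0.17. The part of these markers in the Frzb ratio was not tested.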

How the data were processed

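Agilent Feature Extraction 10.7.3.1 wrote the deposited scanner files, per the file headers. Per the file headers, the authors' software measured the mean spot intensity and local background intensity of Cy5 and Cy3, with flags for dim, saturated and outlier spots. A further column is the software's log10 ratio, which the deposited value table repeats within 0.0001 for over 99.3% of probes per array; its column medians are 0. The dyes were coupled to 250 ng of cDNA, per the labels. Later steps by the authors are not given in the sources used here.

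Background was corrected with normexp (offset 50) and ratios were normalized within arrays by loess in limma 3.58.1 under R 4.3.3. Control spots (3671) had weight 0. Outlier spot values (949, none on an antagonist) were set to missing, and spots of 1 probe were averaged. Probes well above background in 1 channel on at least 3 arrays were kept (44239 of 55681). Probes were named by accession through a RefSeq table of GRCm38.p6 (27235 matched), by the file's symbol otherwise, or left unnamed. The brightest probe represents a gene, which gave 37409 features, 18736 of them genes. Mean log2 ratios were tested against 0 by a two-sided moderated test (lmFit, eBayes), and p-values of all features were adjusted together by Benjamini-Hochberg. The printed channel intensity is the loess-normalized signal after Aquantile normalization between arrays, which keeps each ratio. Antagonists and lists were chosen with earlier results of these data known. Named genes are all antagonists, up to 3 called genes per Wnt list or else its 2 brightest, the 3 genes nearest to Wif1 and to Frzb, and 8 markers of the labels; others are marked as chosen later or stand in a marker list. The fit was tested on simulated data.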

Additional observations from a re-analysis of the deposited data

How the results depend on the processing

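The main test was itself paired, because both RNAs share an array and the ratio is the paired difference, so no separate paired analysis was run. The other settings changed 1 choice at a time, except that the software's ratio and the value table replace both the background correction and the dye normalization; the cause of each change was not tested. The number of genes called, 412 (246 higher in Cy5 and 166 in Cy3), was 1359 with median centring (1126 and 233), and 267 (166 and 101) with the scanner software's ratio and with the deposited value table. Leaving out 1 array gave 0 to 173 genes: 0 without array 1 or 2 (limma; an unadjusted p under 0.05 was reached by 3062 and 3285 genes), 173 without array 3 and 29 without array 4. Antagonists called higher in Cy5 numbered 1, Frzb, with median centring and with scale normalization, and 0 to 1 with an array left out, in place of 0. Those called higher in Cy3 numbered 0 in place of 1 with the software's ratio, the value table, scale normalization and in each of the 4 fits without an array. The Dkk2 mean of 0.032 turned to -0.010 with the software's ratio and with the value table, to -0.084 with scale normalization and to between -0.36 and 0.54 with an array left out (-0.076 without array 2). Dkk3 turned to 0.16 with median centring and lay between -0.51 and 0.032 with an array left out. Sostdc1 turned to -0.67 as the mean of its probes and to -2.24 with its other probe, an alternative chosen after seeing the data. The means of Wif1, Sfrp1, Sfrp2, Sfrp4, Sfrp5, Frzb and Dkk1 kept their sign in every setting run, of which 9 change each ratio at all. Requiring both channels well above background on all arrays left out Dkk1. Signal over background limits Dkk1 and the downstream Sostdc1 probe on array 3, where Cy3 was dim, and 4 arrays without a dye swap limit every ratio.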

Other observations

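Outside the antagonists, further genes of the Wnt lists had their highest ratio on array 3; they were chosen after their values were seen. Lef1, a transcription factor that acts with beta-catenin, had log2 ratios of -1.36, -2.72, 2.15 and -0.97 on arrays 1 to 4. Apcdd1, a membrane-bound Wnt inhibitor, had -2.24, -1.14, 2.12 and 0.48, and the receptor gene Fzd3 had -2.41, -1.55, 3.07 and -0.21. The ligand gene Wnt2b had -3.06, 0.25 and 2.25 on arrays 1 to 3 and a value near 0 on array 4. Fzd3 and Wnt2b were each well above background in Cy3 on only 3 of 4 arrays. None of these 4 genes was called by limma (adjusted p of 0.649 for Lef1, 0.904 for Apcdd1, 0.892 for Fzd3 and 0.941 for Wnt2b). No cause was tested. No antagonist probe had a single array beyond Dixon's limit for 4 values, among 11 probes examined.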
